A study of Mus musculus with 36 samples.

Results

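The genes described here are the nuclear genes of oxidative phosphorylation, which encode most of the protein subunits of respiratory complexes I to IV and of ATP synthase, also called complex V. They were found by symbol in the gene tables of mouse kidney and liver: the Ndufa, Ndufb, Ndufc, Ndufs and Ndufv families of complex I, Sdha to Sdhd of complex II, the Uqcr genes and Cyc1 of complex III, the Cox4 to Cox8 genes of complex IV and the Atp5 genes of complex V, without symbols that mark a pseudogene by "-ps". The rule reads symbols and no measured value, though it was set with earlier results of these data known. The kidney table held 88 such rows of 37991 genes and that of liver 87 of 33495, for 87 different symbols. By complex, the kidney rows were 38 for complex I, 4 for complex II, 9 for complex III, 19 for complex IV and 18 for complex V. The symbols also catch genes that are not subunits. Cox4nb encodes a protein of the endoplasmic reticulum membrane complex and bears its name only because it lies beside Cox4i1. Atp5s and Atp5sl encode assembly proteins, Cox7a2l encodes a protein that helps complexes III and IV bind each other, and Ndufa4, first assigned to complex I, is now counted with complex IV.

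RNA was sequenced from the liver and kidney of male C57BL/6 mice from the NIA colony, 12 months old, after 1 week on 1 of 3 diets, with tissue taken at night between midnight and 3 a.m. Each diet gave 10% of energy as protein. The control diet held 12% fat and 78% carbohydrate, the high-fat diet 75% fat and 10% carbohydrate, and the ketogenic diet 90% fat. Per tissue there were 5 libraries of control, 6 of high-fat and 7 of ketogenic mice, and the comparisons ask how a week of carbohydrate restriction, with or without ketosis, is reflected in the RNA of these genes. A kidney or liver counted below means a library. Replicate numbers run from 0 in the labels. Nothing in the labels ties a liver library to a kidney library of the same mouse, and the tissues were tested separately.

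The inner mitochondrial membrane carries the respiratory chain. Complex I oxidises NADH and complex II oxidises succinate, and both pass electrons to coenzyme Q, from which complex III hands them through cytochrome c to complex IV and oxygen. Complexes I, III and IV pump protons, and ATP synthase uses the proton gradient to make ATP. Proximal tubule cells of the kidney depend on this pathway for sodium reabsorption, and hepatocytes use it when they oxidise fatty acids and make ketone bodies. Complexes I, III, IV and V combine subunits from the nuclear and the mitochondrial genome, whereas complex II is encoded by the nucleus alone. Several subunits of complex IV exist as isoforms used in different tissues, such as the heart and skeletal muscle forms Cox6a2, Cox7a1 and Cox8b and the testis forms Cox6b2 and Cox8c.

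Depth set what could be seen. The kidney libraries held 25.4 to 47.0 M counted reads and the liver libraries 18.9 to 35.9 M. Genes of the mitochondrial chromosome took 68.3 to 79.7% of the reads in kidney and 49.7 to 71.7% in liver, which left 6.48 to 11.9 M and 7.17 to 14.6 M reads for all nuclear genes. The members together took 2.15 to 3.20% of these nuclear reads in kidney and 1.18 to 1.90% in liver. No pair of libraries of the same diet agreed within counting noise, since chi-square per degree of freedom was at least 11.5 in kidney and 26.7 in liver. The tissue labels matched the markers: all 8 hepatocyte markers were tested in liver and all 8 proximal tubule markers in kidney, while 2 of the proximal tubule markers passed the filter in liver, at a summed 0.209 to 1.93 CPM, and 6 of the hepatocyte markers in kidney, at 468 to 891 CPM beside 29779 to 45841 CPM in liver. A filter on low counts left 84 of the 88 kidney rows and 80 of the 87 liver rows for testing, among 15074 and 13374 genes in all. These bulk libraries cannot tell fewer cells of a type from less RNA per cell.

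The 4 kidney rows that failed the filter were Cox4i2, the lung isoform of subunit IV, with 1 to 13 reads per library, Cox7b2 with 3 reads over all libraries, the testis isoform Cox8c with 0 reads in all 18 libraries, and a second Ndufb8 row, also at 0. In liver the 7 that failed were Cox4i2, Cox6a2, Cox6b2, Cox7b2, Cox8b, Cox8c and the Atp5l copy Atp5l2. Their summed liver counts ran from 1 for Cox7b2 to 84 for Cox6b2. Of the 84 liver reads of Cox6b2, 35 lay in control replicate 0 and no other library had more than 8.

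Levels per length separated the members by more than 2 orders of magnitude. They are given as CPM (counts per M counted reads) per kilobase of the length the authors' table gives for the gene, as mean ± SD over the 18 libraries of a tissue. In kidney the highest of each complex were Ndufa4 at 424 ± 114, Sdhd at 93.4 ± 19.0, Uqcr10 at 319 ± 116, Cox4i1 at 293 ± 76.1 and Atp5b, the catalytic beta subunit of ATP synthase, at 279 ± 58.8. The same 5 genes led their complexes in liver, where Ndufa4 stood at 322 ± 131, Sdhd at 108 ± 26.7, Uqcr10 at 140 ± 65.0, Cox4i1 at 207 ± 62.8 and Atp5b at 256 ± 43.2. Complexes here follow the symbols. Counted with complex IV, Ndufa4 would have the highest mean of that complex in both tissues. Ndufb9 would then lead complex I, at 211 in kidney and 187 in liver. In both tissues the SDs of Ndufa4, Cox4i1 and Atp5b overlap. These genes were measured in the same libraries, so the overlap does not decide their order, which was not compared within libraries.

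At the other end, Ndufa4l2, a paralog of Ndufa4 known as a target of hypoxia-inducible factor, was the lowest tested member of the complex I list, at 0.664 CPM per kilobase in kidney and 0.362 in liver. The lowest tested members of the other complexes in kidney were the iron-sulfur subunit Sdhb at 26.7, Uqcrb at 26.4, the muscle isoform Cox6a2 at 0.741 and Atp5l2 at 1.096. In liver they were Sdhb at 16.999, the core protein Uqcrc1 at 23.1, the muscle isoform Cox7a1 at 1.25 and Atp5sl at 1.67. The median tested member of complexes I, II, III, IV and V stood at 26.7, 39.6, 55.4, 65.2 and 44.4 CPM per kilobase in kidney and at 30.7, 38.9, 59.1, 93.9 and 53.9 in liver. Among tested members, complex IV thus had the highest median and complex I the lowest in both tissues. The place of complex IV rests on the filter, which kept 16 of its 19 rows in kidney and 13 of 19 in liver. Over all 19 rows, its median member was Cox6c at 31.3 in kidney and Cox7a2l at 19.5 in liver.

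**Figure D1:**
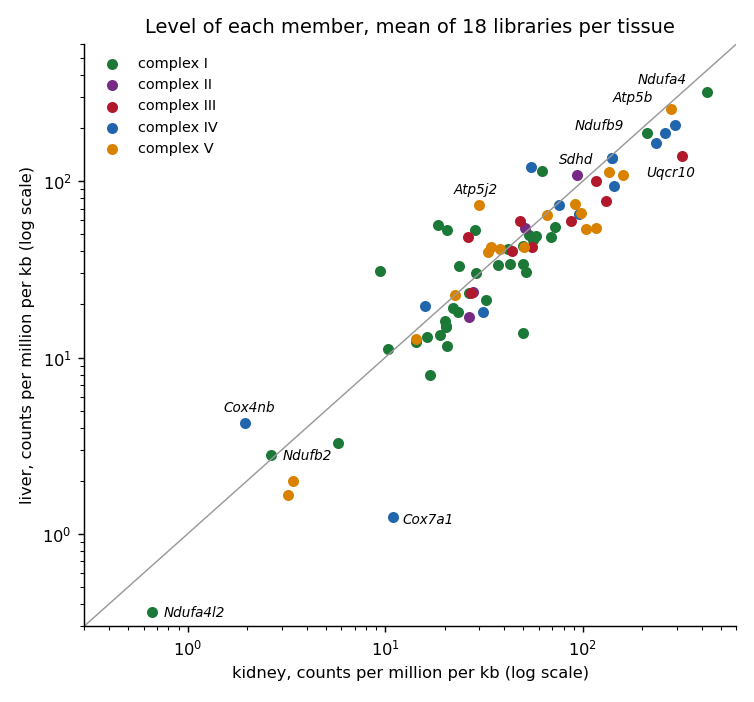
Mean level over 18 libraries of each of the 80 members tested in both tissues, with kidney on the horizontal and liver on the vertical axis (CPM per kilobase, both log scales); colours mark the complexes and the grey line marks equal levels. Of the 80 points, 60 lie on the kidney side of the line, Cox7a1 lies furthest from it on that side, and Ndufa4l2 is the lowest point in both tissues.

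Tissue levels can only be set side by side, since each tissue has its own table and its own gene lengths. Of the 80 members tested in both tissues, 60 had the higher mean CPM per kilobase in kidney and 73 the higher mean CPM. Lengths were within 10% for 53 of the 80 and over 2 times apart for 7, among them Ndufb8, Cox4nb and Atp5j2. Cox7a1, with the same length in both tables, stood at 11.001 CPM per kilobase in kidney and 1.25 in liver.

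Pairs of complex IV isoforms had a clear major partner in every library that held reads of both. The ratio of levels per kilobase, as the median over kidney libraries, was 2238 for Cox4i1 over Cox4i2, 410 for Cox6a1 over Cox6a2, 50.4 for Cox6b1 over Cox6b2 and 13.0 for Cox7a2 over Cox7a1. Cox8a over Cox8b had a median of 412 in the 16 kidney libraries with Cox8b reads and the widest spread, from 25.3 to 1877. In liver the ratio of Cox6b1 to Cox6b2 was 504 in the 15 libraries with Cox6b2 reads, and that of Cox7a2 to Cox7a1 was 106. Ndufa4 exceeded Ndufa4l2 by a median ratio of 710 in kidney and 1101 in liver, and Cox7a2 exceeded Cox7a2l by 8.31 and 6.75. The c ring of ATP synthase is encoded by Atp5g1, Atp5g2 and Atp5g3, whose mature proteins are identical. Atp5g3 was the most abundant of the 3, with median ratios of 6.84 to Atp5g1 and 3.03 to Atp5g2 in kidney and 4.92 and 1.58 in liver.

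In kidney, the ketogenic diet was accompanied by a higher level of Cox6b2 and by no other called difference among the members. Cox6b2 encodes the testis isoform of subunit VIb, which sits at the intermembrane face of complex IV where its dimers meet. The gene lies on chromosome 7, from 4703396 to 4704696 on the minus strand of mm9, and overlaps no other gene of the kidney table. Its level in the 5 control kidneys was 1.01, 1.13, 0.869, 1.09 and 0.720 CPM. The 6 high-fat kidneys ran from 1.20 over a median of 1.56 to 2.26 CPM, and the 7 ketogenic kidneys from 1.44 over 1.76 to 3.03 CPM. Every high-fat and every ketogenic library lay above every control library, and the high-fat and ketogenic groups overlap. These levels rest on few reads, 20 to 40 per control library, 39 to 103 per high-fat library and 42 to 97 per ketogenic library.

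The ketogenic level of Cox6b2 exceeded the control level by 1.08 ± 0.23 (SE) on the log2 scale, or 2.12-fold, in edgeR's quasi-likelihood test with a Benjamini-Hochberg adjusted p of 0.0345 over all 15074 genes. It was the only one of the 84 tested members past the adjusted p of 0.05, or 1.19% of them, while 49 of all genes tested passed it, or 0.325%. The share of genes whose ketogenic libraries all lay above all control libraries was 0.531%, and Cox6b2 was the only such member. The call is a narrow one. It held in 16 of 27 alternative settings and was lost, for example, with limma-voom (adjusted p = 0.0766), with a replicate block (adjusted p = 0.0762) and without control replicate 4 (adjusted p = 0.115), while the log2 difference stayed between 0.95 and 1.14. The authors' deposited table gives Cox6b2 a false discovery rate of 0.196 in this comparison.

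High-fat kidneys had a Cox6b2 level 0.78 ± 0.24 above control on the log2 scale (unadjusted p = 0.0030, adjusted p = 0.528 in edgeR's quasi-likelihood test), so that difference was not called. Ketogenic and high-fat kidneys differed by 0.30 ± 0.21 (edgeR adjusted over all genes, not called; unadjusted p = 0.163). The partner isoform Cox6b1 stood at 69.2 ± 9.21 CPM (SD, n = 5) in control, 69.3 ± 20.1 (n = 6) in high-fat and 73.7 ± 17.9 (n = 7) in ketogenic kidneys. The share of Cox6b2 in the summed level of both isoforms per kilobase was 1.29 ± 0.314% in control, 2.21 ± 0.560% in high-fat and 2.57 ± 0.902% in ketogenic kidneys, so Cox6b1 remained the main form on each diet.

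**Figure D2:**
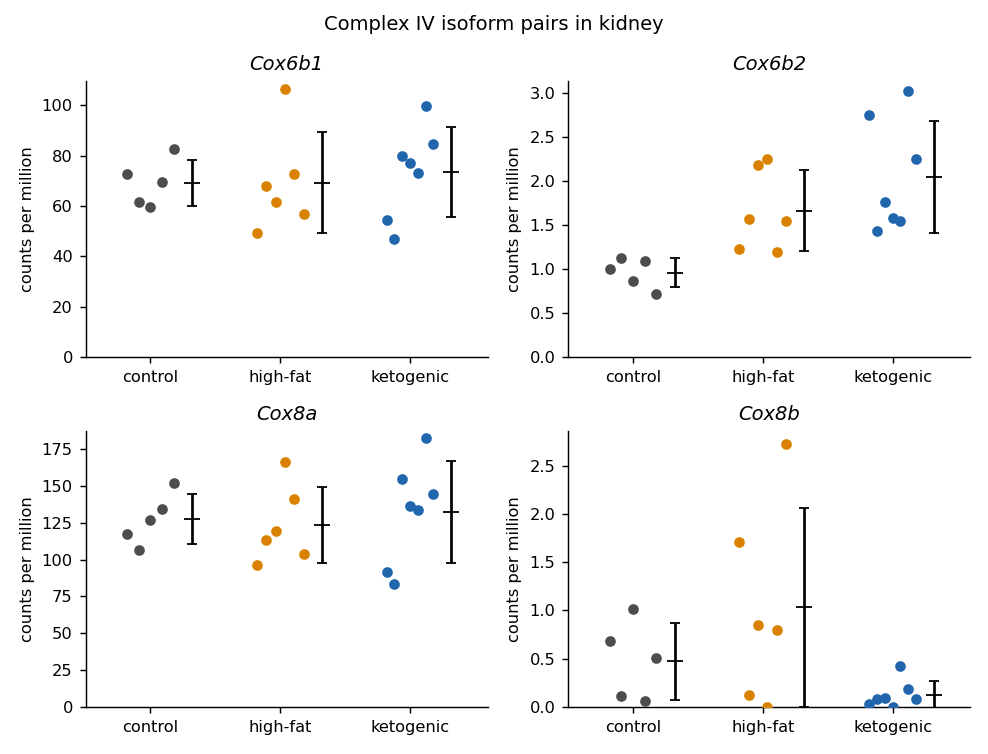
CPM of Cox6b1, Cox6b2, Cox8a and Cox8b in each kidney library by diet, with group mean and SD bars (n = 5, 6 and 7); SD bars that would pass below 0 end at the axis. All high-fat and ketogenic points of Cox6b2 lie above the highest control point of 1.13 CPM, while Cox8b runs from 0 to 2.73 CPM within the high-fat group.

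Over all 84 tested kidney members, 46 were higher and 38 lower on the ketogenic than on the control diet, with a median log2 difference of 0.01, beside 0.02 for all genes. This split has no firm direction: it was 34 higher and 50 lower with limma-voom and 21 higher and 63 lower with a replicate block, where the median was -0.09. The median standard error of a member was about 0.17 to 0.18 in the kidney comparisons, so a difference of the order of 0.2 in a single member lies within the error. In complex I the smallest p-values belonged to the flavoprotein-module subunit Ndufv3, at 0.15 ± 0.11, and the membrane-arm subunit Ndufb2, at 0.21 ± 0.19. In complex II, Sdhc, a membrane anchor, was at 0.09 ± 0.14 and Sdhb at -0.03 ± 0.13. In complex III the core protein Uqcrc2 was at -0.09 ± 0.13 and Uqcrq at 0.20 ± 0.33. In complex V, Atp5sl was at 0.24 ± 0.14 and Atp5f1, the b subunit of the peripheral stalk, at -0.15 ± 0.13. None of these values exceeded its error by enough to pass the test.

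Cox8b, the muscle and brown fat form of subunit VIII, varied most between kidneys. Its control levels were 0.679, 0.116, 1.01, 0.0573 and 0.504 CPM. High-fat kidneys ran from 0 over a median of 0.825 to 2.73 CPM and ketogenic kidneys from 0 over 0.0844 to 0.423 CPM. Groups overlap, and each holds libraries near 0. The ketogenic level differed from control by -1.86 ± 0.93 and from high-fat by -2.99 ± 0.85 on the log2 scale (adjusted p = 0.623 and 0.499 in edgeR's quasi-likelihood test, unadjusted p = 0.061 and 0.0026), so neither was called.

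The brown fat marker Ucp1 moved with Cox8b, and Cidea, another, did so in part. Both were chosen after the values of Cox8b had been seen. Ucp1, the uncoupling protein of brown fat, had 149, 8, 154, 5 and 50 reads in the 5 control kidneys, and Cox8b had 27, 4, 36, 2 and 14 in the same order. In the 6 high-fat kidneys Ucp1 had 426, 20, 76, 0, 100 and 673 reads and Cox8b 64, 3, 40, 0, 30 and 79, and in no ketogenic kidney did Ucp1 exceed 20 or Cox8b 12. Kidneys rich in Ucp1 reads were also rich in Cox8b reads. Cidea, which failed the count filter, had 31, 1, 43, 0 and 5 reads in control and 50, 1, 3, 0, 11 and 60 in high-fat kidneys, so high-fat replicate 2 had 3 Cidea reads beside 40 of Cox8b. Of a list of 8 adipocyte markers, 7 were tested in kidney. All 7 were lower in ketogenic than in high-fat kidneys, as were 7257 of all 15074 genes, and their median log2 difference was -1.15. None passed the adjusted threshold, and 3 were at an unadjusted p under 0.05 in edgeR's quasi-likelihood test, beside 1.98% of all genes lower at that p. Their summed level ran from 15.2 to 47.2 CPM in control, 13.2 to 71.0 in high-fat and 9.44 to 31.8 in ketogenic kidneys. None of 8 skeletal muscle markers passed the count filter in kidney, where the highest count of any was 16. The part of fat tissue in the Cox8b levels was not tested.

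Between high-fat and control kidneys 2 of all genes tested passed the adjusted threshold, or 0.0133%, and 0 of the 84 members. Cox6b2 was the only member at an unadjusted p under 0.05 and higher, beside 3.73% of all genes, and the only member whose high-fat libraries all lay above the control libraries, beside 0.484%. Neither DESeq2 nor limma-voom called a member. The next smallest p-values were those of Cox8b, at 1.13 ± 0.80, and Cox6a2, at 0.60 ± 0.48, both muscle isoforms at low levels. The median member was at -0.06 on the log2 scale, with 64 of 84 lower, beside 0.01 for all genes. That sign was lost without high-fat replicate 0, where the median was 0.01.

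Between ketogenic and high-fat kidneys 7 of all genes passed, or 0.0464%, and 0 members in edgeR, DESeq2 or limma-voom. Cox8b was the only member at an unadjusted p under 0.05 and lower, beside 1.98% of all genes. The median member was at 0.07, with 71 of 84 higher, beside 0.01 for all genes, but at 0.01 with 49 higher without high-fat replicate 0. After Cox8b the smallest p-values were those of Atp5sl, at 0.23 ± 0.13, and Cox6b2; Cox6a2 was at -0.44 ± 0.44. Both high-fat comparisons share the high-fat libraries, so the opposite signs of their medians are not separate observations.

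In liver, none of the 80 tested members and none of the 13374 genes tested was called in any of the 3 comparisons. The share of genes past the adjusted threshold was 0% for ketogenic versus control, 0% for high-fat versus control and 0% for ketogenic versus high-fat livers in edgeR's quasi-likelihood test, and DESeq2 and limma-voom also called 0 members. The authors' deposited table puts 231, 87 and 226 of its 33495 genes under a false discovery rate of 0.05 in these comparisons, in the same order, and 0 members. Of the 80 members, 72 were lower in high-fat than in control livers, and the median log2 difference was -0.39, beside -0.02 for all genes. Members vary together from library to library and are not replicates, so these counts do not show a difference between the diets. The mean deviation of the members per library, in log2 units, was -0.18 ± 0.29 (SD, n = 6) in high-fat and 0.14 ± 0.38 (n = 5) in control livers, and the libraries overlap. At an unadjusted p under 0.05, 11 of the 80 members were lower, or 13.8%, beside 4.53% of all genes, and none was higher. Of the 11, 7 belong to complex I (Ndufa5, Ndufa6, Ndufa8, Ndufb6, Ndufb7, Ndufc1 and Ndufs6), 1 to complex III (Uqcrh), 1 to complex IV (Cox7a2l) and 2 to complex V (Atp5j and Atp5j2), and all 11 log2 differences lay between -0.81 and -0.48.

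By complex, the median log2 difference between high-fat and control livers was -0.43 for complex I with 34 of 37 members lower, -0.26 for complex II with 3 of 4, -0.42 for complex III with 8 of 9, -0.42 for complex IV with 13 of 13 and -0.26 for complex V with 14 of 17. Per library, the mean deviation of complex IV ran from -0.62 to 0.32 in high-fat and from -0.31 to 0.68 in control livers, and the groups overlap in this way for each of the 5 complexes. In complexes I and III the core subunits lay nearer to 0 than the others. The 7 core subunits of complex I, which carry the flavin and iron-sulfur centres, had a median of -0.15, and 28 accessory subunits one of -0.48, with 27 of 28 lower. In complex III the core proteins, Cyc1 and the Rieske protein had a median of -0.08 and the other subunits one of -0.57. In ATP synthase the catalytic F1 part was at -0.18, the c ring at -0.26 and the peripheral stalk at -0.43. The grouping by role is a textbook grouping made after the values were known, and no test was made of it. Role goes with gene length in part. In liver the core subunits of complex I run from 1718 bases (Ndufs7) to 3261 (Ndufs1), except Ndufs8 at 753. Most accessory subunits are under 1500 bases, although Ndufb2 has 5327. In complex III the core group runs from 1154 (Cyc1) to 2323 (Uqcrc2) and the others from 479 (Uqcrb) to 1831 (Uqcrq). Role and length were not tested apart.

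The 3 members with the smallest p in high-fat versus control livers were Ndufa8, Ndufa5 and Atp5j2, each with an adjusted p of 0.681 in edgeR's quasi-likelihood test. Ndufa8 encodes a subunit of complex I with cysteine motifs that is imported into the intermembrane space. In control livers its level was 40.8, 29.0, 19.1, 25.5 and 17.4 CPM. In high-fat livers it ran from 10.6 over a median of 17.1 to 25.4 CPM, and the log2 difference was -0.61 ± 0.24. Control replicates 0, 1 and 3 stood above every high-fat liver, replicate 3 only just, and control replicates 2 and 4 overlapped with the high-fat group.

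Ndufa5, a subunit of the peripheral arm, had 17.4, 18.0, 11.2, 16.7 and 10.0 CPM in control livers and 6.18 to 14.3 CPM, with a median of 8.13, in high-fat livers. The log2 difference was -0.66 ± 0.27. Atp5j2, the f subunit of the membrane part of ATP synthase, had 74.1, 47.3, 24.7, 34.0 and 22.1 CPM in control livers and 16.6 to 35.1 CPM, with a median of 20.1, in high-fat livers. Its log2 difference was -0.81 ± 0.33. For Atp5j2 control replicates 0 and 1 stood above every high-fat liver, and the groups overlap.

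**Figure D3:**
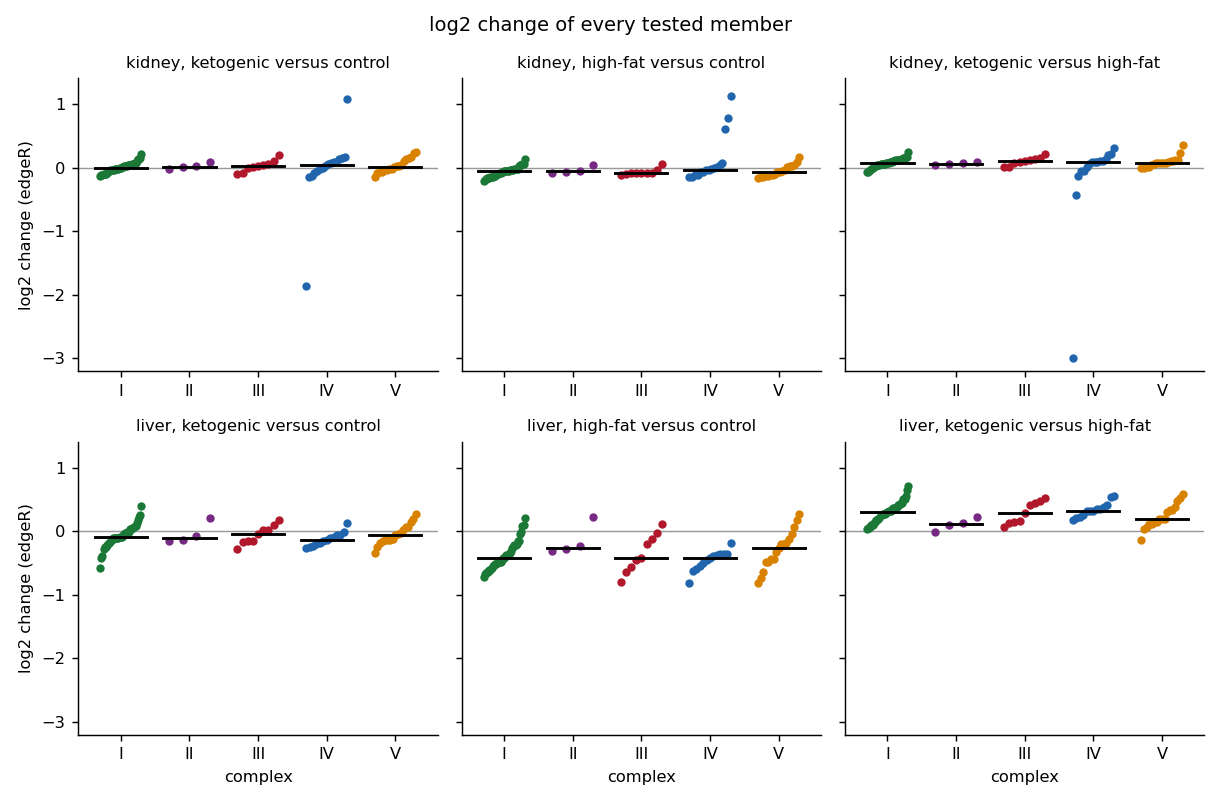
Log2 difference from edgeR for each tested member, sorted within its complex, in the 3 diet comparisons of kidney (top) and liver (bottom); each point is a member and the black bars are medians of a complex. In liver the high-fat versus control medians of the 5 complexes lie between -0.43 and -0.26, and the single called member is the kidney complex IV point at 1.08, Cox6b2.

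Ketogenic livers lay between the other groups only on average. Their mean deviation of the members was 0.06, beside 0.14 in control and -0.18 in high-fat livers. Single ketogenic livers ran from -0.32 to 0.54, with 3 of 7 above 0 and a median of -0.22, beside a high-fat median of -0.28. Against control the median member was at -0.09, with 57 of 80 lower, beside -0.02 for all genes. Ndufa8 was the only member lower at an unadjusted p under 0.05, beside 5.02% of all genes, at -0.58 ± 0.23 (unadjusted p = 0.0206, adjusted p = 0.455 in edgeR's quasi-likelihood test). Its ketogenic levels ran from 12.6 over a median of 16.4 to 26.9 CPM and overlap with the control levels given above. In complex I, Ndufa10 followed at 0.26 ± 0.15. In complex II the flavoprotein Sdha was at 0.20 ± 0.12 and Sdhc at -0.16 ± 0.20. In complex III, Uqcrc1 was at 0.17 ± 0.15 and the hinge protein Uqcrh at -0.27 ± 0.34. In complex IV, Cox5a was at -0.19 ± 0.18 and Cox7a2l at -0.24 ± 0.24, and in complex V, Atp5b was at 0.20 ± 0.16 and Atp5o, of the stalk, at -0.25 ± 0.21. The median changed sign without control replicate 0 (0.02), without control replicate 1 (0.01) and with a replicate block (0.03).

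Against high-fat livers, 78 of 80 members were higher in ketogenic livers, with a median log2 difference of 0.29 beside 0.01 for all genes. That median was 0.18 without ketogenic replicate 0 and 0.18 without ketogenic replicate 1. With no normalization factors it was 0.07, with 51 of 80 higher and all genes at -0.17. Ndufb3, a membrane-arm subunit of complex I, was the only member higher at an unadjusted p under 0.05, beside 1.66% of all genes, at 0.44 ± 0.19 (unadjusted p = 0.027, adjusted p = 0.999 in edgeR's quasi-likelihood test). It ran from 10.9 over 13.6 to 19.96 CPM in high-fat livers and from 13.7 over 17.4 to 28.0 CPM in ketogenic livers. Ndufb9 was at 0.54 ± 0.27 and Ndufb2 at 0.42 ± 0.22. This comparison shares the high-fat livers with the one against control.

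Differences between libraries of the same diet were as large as those between diets. For each library, the mean deviation of the members' log2 CPM from their means over all libraries was taken as a score. In liver the score ran from -0.56 in high-fat replicate 2 to 0.54 in ketogenic replicate 1, a 2.15-fold range, and in kidney from -0.48 in ketogenic replicate 1 to 0.35 in high-fat replicate 3, a 1.77-fold range. The within-diet SD of the score was 0.36 in liver and 0.27 in kidney, while the diet means spanned 0.33 and 0.06. In liver the means were 0.14 ± 0.38 for control (SD, n = 5), -0.18 ± 0.29 for high-fat (n = 6) and 0.06 ± 0.41 for ketogenic (n = 7). Scores above 0 were found in 3 of 5 control, 2 of 6 high-fat and 3 of 7 ketogenic livers, so high and low livers occur on each diet.

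**Figure D4:**
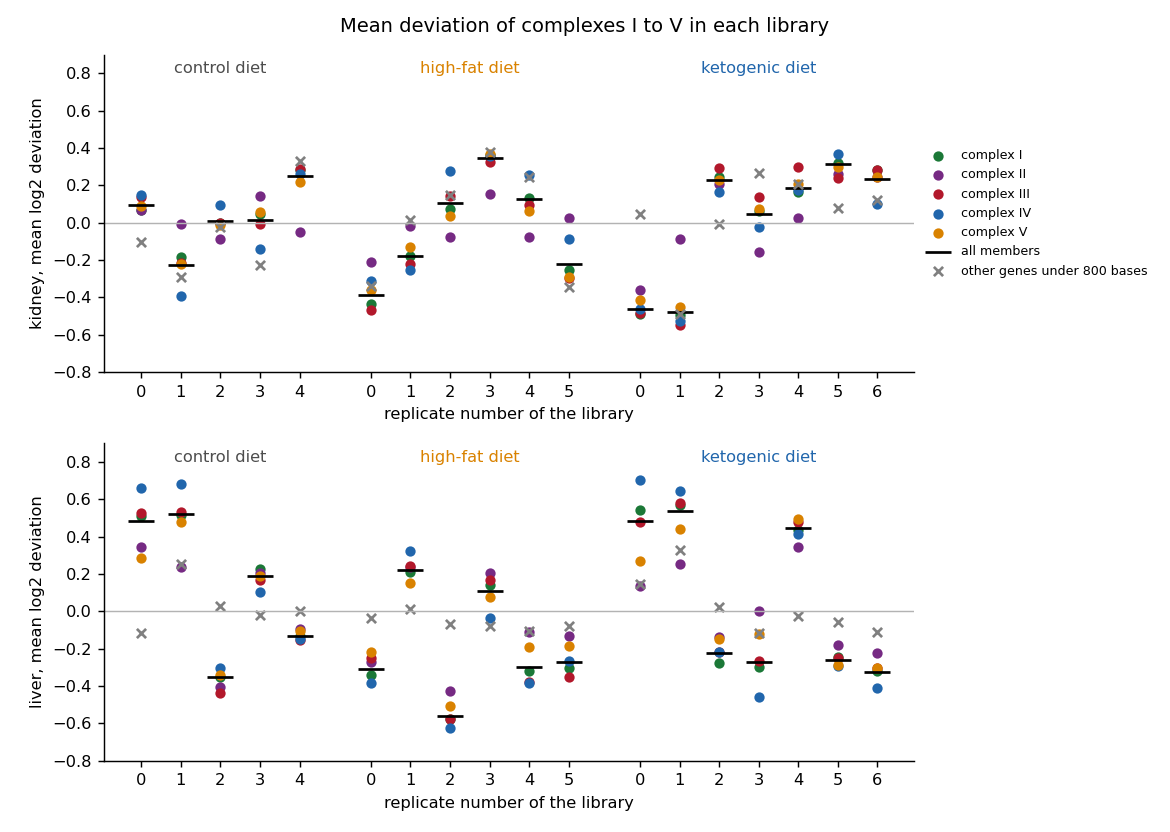
Mean log2 deviation of the tested members in each library, by diet and replicate number, for kidney (top) and liver (bottom); black bars are all members, coloured points the 5 complexes and crosses the other nuclear genes under 800 bases. The bars run from -0.56 to 0.22 in high-fat livers and from -0.48 to 0.31 in ketogenic kidneys, so the diets overlap in both tissues, and the complexes of a library lie near its bar.

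Members varied together across libraries once the diet means were removed. The median correlation of a pair of members, over 18 libraries of log2 CPM centred by diet, was 0.64 in kidney, with an interquartile range of 0.26 to 0.86, and 0.83 in liver, with one of 0.59 to 0.92. The median over pairs of all genes tested was 0.00 in both tissues. By complex, the medians were 0.75, 0.43, 0.48, 0.71 and 0.47 for complexes I to V in kidney and 0.84, 0.51, 0.81, 0.93 and 0.78 in liver. Members of the same library are read at the same depth and from the same amplified RNA, whose quality was not examined here. These values are descriptions without a test. Ndufa2 and Cox7a2 in kidney, with a median correlation to the other members of 0.88 each, and Atp5k and Ndufa2 in liver, with 0.93 each, followed the rest most closely.

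A few members went against the rest. In kidney 6 of 84 had a negative median correlation: Ndufa10 at -0.36, Sdha at -0.32, Atp5s at -0.31, the iron-sulfur subunit Ndufs1 at -0.28, Atp5b at -0.26 and Cox8b at -0.11. In liver the 4 of 80 were Atp5sl at -0.25, Sdha at -0.16, Atp5b at -0.11 and Atp5s at -0.06. The Atp5sl value includes control replicate 0, a library with a score of 0.48. There Atp5sl lay far below the other control livers, and its correlation without that library was not computed. Sdha, Atp5b and Atp5s were in both lists. Atp5a1, the other large subunit of the catalytic F1 part, was in neither. How closely a member followed the rest also differed with gene length. In the 4 length classes given below, short to long, the median was 0.82, 0.81, 0.71 and 0.51 in kidney. In liver it was 0.90, 0.89, 0.78 and 0.82. Ndufa10, Sdha, Ndufs1 and Atp5b have 2272 to 4237 bases in kidney, but Atp5s has 1485 and Cox8b 362. The part of length was not tested.

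Gene length without introns moved with these patterns. In high-fat versus control livers the median log2 difference of members was -0.45 for those under 800 bases, -0.44 for 800 to under 1500, -0.19 for 1500 to under 3000 and -0.26 for 3000 or more, with 31, 21, 19 and 9 members. Other nuclear genes in the same classes stood at -0.23, -0.13, -0.04 and 0.03. Ketogenic versus high-fat livers had members at 0.35, 0.31, 0.15 and 0.12 and other genes at 0.14, 0.08, 0.04 and -0.03. In these 2 comparisons the other short genes lay on the same side of 0 as the short members, by less. In ketogenic versus control livers they stood at -0.13 and the short members at -0.12, and in high-fat versus control kidneys at 0.04 and -0.04, on opposite sides. Single libraries did not always show both: in liver control replicate 0 the other genes under 800 bases deviated by -0.12 and the members by 0.48, and in kidney ketogenic replicate 0 by 0.05 and -0.46. The part of length in the members' differences was not tested.

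**Figure D5:**
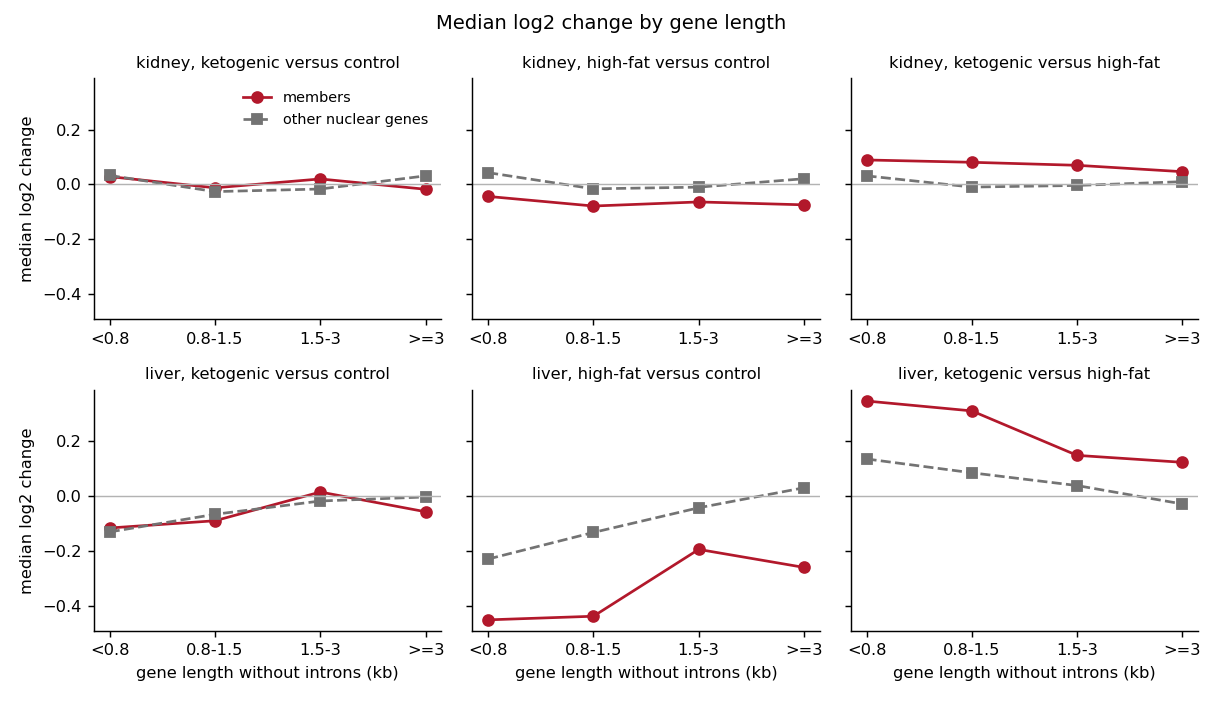
Median log2 difference by class of gene length without introns (kilobases) for members (circles) and other nuclear genes (squares) in each diet comparison of kidney (top) and liver (bottom). In high-fat versus control livers the members lie at -0.45, -0.44, -0.19 and -0.26 from short to long, below the other genes at -0.23, -0.13, -0.04 and 0.03.

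Among the livers with high scores, control replicate 0 stood apart in other measures. With a score of 0.48, it had the smallest mitochondrial share of all livers, 49.7%, and its genes of 3000 bases or more deviated by -0.25. Ketogenic replicate 0, also with a score of 0.48, had a mitochondrial share of 70.4%. The median member in high-fat versus control livers was at -0.29 without control replicate 0 and at -0.28 without control replicate 1, in place of -0.39. Atp5sl, at 4.86 to 6.18 CPM in the other 4 control livers, was at 0.747 CPM in it. Its part in the liver comparisons beyond these values was not tested.

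Genes that build or serve the complexes were looked at as lists. Of 45 assembly factors of complexes I to V, 29 were tested in kidney and 27 in liver, and none passed the adjusted threshold of edgeR's quasi-likelihood test in any comparison. Their median was -0.01 for ketogenic versus control kidneys and -0.14 for high-fat versus control livers, where 9 of 27 were higher. Of 11 genes for cytochrome c and coenzyme Q synthesis, 14 of the tricarboxylic acid cycle and 7 carriers of adenine nucleotides and phosphate, none was called either. In ketogenic versus control livers 11 of 14 cycle genes were higher, with a median of 0.18 and 3 of them at an unadjusted p under 0.05, beside 4.36% of all genes higher at that p. In high-fat versus control livers, where the OXPHOS members were at -0.39, the cycle genes had a median of 0.11.

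Regulators of mitochondrial biogenesis showed no called difference. Ppargc1a, the coactivator PGC-1alpha, had 11.3, 11.2, 12.9, 13.7 and 11.5 CPM in control livers and 5.65 to 11.1 CPM, with a median of 10.6, in ketogenic livers, so every ketogenic liver lay below every control liver, as for 0.179% of all genes tested. It was 1 of 13 regulators listed. Its log2 difference was -0.40 ± 0.18 (unadjusted p = 0.0325, adjusted p = 0.492 in edgeR's quasi-likelihood test). Gabpa, the DNA-binding subunit of GABP, was at -0.30 ± 0.13, Tfam, which binds mitochondrial DNA, at 0.24 ± 0.13, the receptor Esrra at 0.29 ± 0.31 and Nrf1 at -0.12 ± 0.25. Cytochrome c, Cycs, was at -0.20 ± 0.19 and the ATP synthase inhibitor Atpif1 at -0.14 ± 0.30. None of these was called.

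The mitochondrial chromosome encodes the remaining subunits of complexes I, III, IV and V. Of its 13 protein genes, 12 were tested in kidney, and 11 of these were higher in high-fat than in control kidneys, with a median log2 difference of 0.49 and 8 at an unadjusted p under 0.05, none called, beside 3.73% of all genes higher at that p. The nuclear members were at -0.06 in the same comparison. In ketogenic versus control kidneys 11 of the 12 were also higher, with a median of 0.32. There 3 were at an unadjusted p under 0.05 in edgeR's quasi-likelihood test, none called, beside 5.28% of all genes higher at that p. Both comparisons share the control libraries, and genes of the same chromosome are not replicates. Among the markers of other cell types, only Calb1, a distal tubule gene, passed the adjusted threshold, at -0.81 ± 0.15 in ketogenic versus high-fat kidneys (adjusted p = 0.0467 in edgeR's quasi-likelihood test).

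Promoters of the members are shown because many respiratory genes are known targets of the nuclear respiratory factors NRF1 and GABP, of the estrogen-related receptors (ERR) and of YY1. Promoter windows of 250 bases before to 50 bases after the start site came from RefSeq on GRCm38.p6, a later build than the mm9 of the expression tables, and 69 of the 87 symbols had one. Letters were searched on both strands in the windows of all 27025 genes of the table. The NRF1 motif GCGCATGCG was present in 8 of the 69 members (11.6%) and in 1.95% of all genes, and the palindromic half-site TGCGCA, which is not contained in those letters, in 18 (26.1%) and in 8.79%. The YY1 motif AAGATGGC was in 11 members (15.9%) and in 3.19% of genes. The ERR motif TCAAGGTCA was in 2 members (2.90%) and in 0.466% of genes, and its core AAGGTCA, which lies within it, in 8 (11.6%) and in 5.38%. The GABP motif CCGGAAGT was in 5 (7.25%) and in 4.31%. Matches are descriptions of letters and say nothing of binding.

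The 11 members with a YY1 match were 7 of complex I, among them Ndufa3, Ndufa9, Ndufs4 and Ndufs7, and 4 of complex V, among them Atp5f1 and Atp5j2. Of 13 complex IV members with a window, none had that match. Sdhd was the only complex II member with the ERR motif, and Atp5g3 the only one of complex V. The windows below belong to the 4 members with the smallest p in ketogenic versus control kidneys among those whose window holds the NRF1 or ERR motif, the half-site or the ERR core. Capitals mark the matched letters, with overlapping matches joined. Positions count back from the start site. The Atp5f1 window (chr3:105959214-105959513, minus strand) holds TGCGCA at -234 and the YY1 letters, on the other strand, at -3. The Ndufb2 window (chr6:39592315-39592614, plus strand) holds AAGGTCA at -181. The Cox5b window (chr1:36691237-36691536, plus strand) holds TGCGCA at -52. The Cox6a1 window (chr5:115348909-115349208, minus strand) holds the NRF1 motif on both strands at -162 and -161 and TGCGCA at -118.
Atp5f1: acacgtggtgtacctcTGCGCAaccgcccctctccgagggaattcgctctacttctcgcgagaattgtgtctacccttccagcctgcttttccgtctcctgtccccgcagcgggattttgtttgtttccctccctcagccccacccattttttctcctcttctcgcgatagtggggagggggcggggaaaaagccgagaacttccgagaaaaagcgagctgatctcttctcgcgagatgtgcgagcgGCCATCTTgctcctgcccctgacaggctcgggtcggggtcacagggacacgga
Ndufb2: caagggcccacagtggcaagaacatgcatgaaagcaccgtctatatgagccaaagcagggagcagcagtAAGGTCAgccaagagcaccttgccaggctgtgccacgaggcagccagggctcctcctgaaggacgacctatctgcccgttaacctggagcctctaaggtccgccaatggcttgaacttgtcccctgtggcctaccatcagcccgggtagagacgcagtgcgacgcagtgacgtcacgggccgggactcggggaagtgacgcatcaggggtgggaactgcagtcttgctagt
Cox5b: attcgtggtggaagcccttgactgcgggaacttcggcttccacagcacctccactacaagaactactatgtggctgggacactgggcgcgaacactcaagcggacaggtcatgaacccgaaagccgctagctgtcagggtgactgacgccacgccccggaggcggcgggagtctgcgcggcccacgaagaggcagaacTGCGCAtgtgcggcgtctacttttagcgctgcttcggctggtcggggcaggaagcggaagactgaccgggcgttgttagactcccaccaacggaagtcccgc
Cox6a1: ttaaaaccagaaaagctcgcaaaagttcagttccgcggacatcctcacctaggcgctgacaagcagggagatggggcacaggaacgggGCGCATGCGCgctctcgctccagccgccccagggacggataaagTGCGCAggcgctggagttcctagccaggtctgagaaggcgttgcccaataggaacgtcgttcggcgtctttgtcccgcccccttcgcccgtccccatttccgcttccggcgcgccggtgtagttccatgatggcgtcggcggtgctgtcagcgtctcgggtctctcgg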

How the data were processed

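The authors deposited, per the file headers, a table for each tissue with raw counts per gene for liver, raw counts for kidney (entered in the unit check under estimated counts, though all are whole and none was rounded), gene positions, lengths, and p-values with false discovery rates of their own comparisons. Per the labels' protocols, RNA was amplified with random and oligo-dT primers and sequenced on an Illumina HiSeq. Tools and build listed in the submitters' processing notes are the mm9 genome, TopHat2 2.0.11, featureCounts of Subread, DESeq and edgeR. Whether counting used strand is not given in the sources used here, so reads of the 29 kidney and 17 liver members that overlap another gene may be shared. None of the 90 other per-sample value columns was used.

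From the counts, each tissue was fitted separately in R 4.3.3 with edgeR 4.0.16 over its 3 diets: a filter on low counts (filterByExpr, minimum count 10), TMM factors, robust quasi-likelihood tests and Benjamini-Hochberg adjustment over all genes tested, with a threshold of 0.05. A standard error is the log2 difference divided by the root of its F value. CPM used the TMM-scaled totals, mitochondrial reads included, and log2 CPM used a prior count of 2. Nothing in the labels says outright that the libraries of a diet came from separate animals, so p-values measure only the spread between these libraries, which may be technical. DESeq2 1.42.0, limma-voom (limma 3.58.1), other scalings, no filter, a replicate block, 2-diet fits and leaving out each library were the alternatives. The fit was tested on simulated data. A called member is one past the adjusted threshold. Members named are those called, those with the smallest p per complex or comparison, the highest and lowest per kilobase, isoform pairs, members under the filter, and fixed regulators. The members and lists were chosen with earlier results of these data known. Intervals and SDs cover the libraries measured. Protein sequences were not used here.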

Additional observations from a re-analysis of the deposited data

Results flagged for a closer look

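Over 120 groups of 1 measure and 1 diet, 2 held a library far from the rest. This was judged by its gap to the nearest library relative to the group's range. The measures were library scores, the members' share of nuclear reads and the log2 CPM of named members. A member was examined only in a tissue where it was called or had one of the smallest p-values. Atp5sl in liver, with the low value in control replicate 0 given above, was therefore not examined. Chance flags about 1 group in 20. In kidney, the log2 CPM of Atp5sl in ketogenic replicate 1 was 2.85, while the other 6 ketogenic kidneys lay between 3.34 and 3.57. In liver, the log2 CPM of Ndufa10 in ketogenic replicate 0 was 5.84, while the other 6 ketogenic livers lay between 6.14 and 6.36.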

How the results depend on the processing

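The kidney Cox6b2 call decides the count of members called for ketogenic versus control, which was 1 and became 0 with no normalization factors (adjusted p = 0.153), with limma-voom (0.0766), with a replicate block (0.0762) and with only the 2 diets fitted (0.0532). Leaving out each library gave 0 to 1 members: the call was lost without control replicates 0, 2, 3 and 4 (adjusted p = 0.0982, 0.106, 0.0785 and 0.115) and without ketogenic replicates 0, 5 and 6 (0.0841, 0.0935 and 0.0625). The cause was not tested. The log2 difference was above 0 in all 27 alternatives. In the other 5 comparisons the count of members called was 0 in all 27. Across the alternatives the members' median log2 difference ran from -0.51 to -0.28 for high-fat versus control livers, from 0.07 to 0.40 for ketogenic versus high-fat livers, from -0.24 to 0.03 for ketogenic versus control livers, and in kidney from -0.19 to 0.01 (high-fat versus control), -0.10 to 0.07 (ketogenic versus control, with the other sign in 15 of 27) and 0.01 to 0.15 (ketogenic versus high-fat). With no normalization factors the median of all genes moved to -0.10 and -0.11 in kidney against control and to -0.13 and -0.17 in ketogenic livers against control and high-fat. Of same-numbered libraries, 9 of 16 kidney pairs and 7 of 16 liver pairs had a correlation over 0.1. Their median correlation was 0.11 in kidney and 0.05 in liver, beside -0.03 and 0.01 for libraries of other numbers and diets. In the kidney labels the diets alternate at first, so replicates 0 to 2 of each diet carry neighbouring numbers. From replicate 3 on this order breaks. The kidney pairs above and the replicate block therefore also join libraries that are not neighbours. No label states a pairing, and the main fit did not use the numbers. Whether they mark a shared step was not tested. With the replicate block the members' medians were -0.30 for high-fat versus control livers and 0.32 for ketogenic versus high-fat livers. Depth limits Cox6b2, Cox8b and Cox6a2, whose counts per library were low.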
